A study of Homo sapiens with 2 samples.

Results

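The genes described here act in the DNA damage response: 54 genes of damage signalling, homologous recombination, the Fanconi pathway, mismatch repair, end joining and the RecQ helicase family. They were chosen by name, from pathways of DNA double-strand breaks, where POH1 also acts, and from other repair pathways. Earlier results of these data were known when they were chosen. All 54 were found among the 58174 gene identifiers measured, and for 51 of them the 2 libraries averaged 1 TPM or more. TPM, the unit of the deposited table, is a relative level that is divided by transcript length, so that levels of different genes can be compared. The cells were PC3, a human prostate cancer line grown in culture, transfected with a control siRNA in 1 library and with an siRNA against POH1 in the other. The siRNA sequences, the dose and the time of harvest are not stated in those labels. With 1 library per group there is no replicate error, so each difference below separates these 2 libraries and carries no test, and no value shows whether it would recur in another culture.

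A double-strand break is sensed by the kinases ATM, ATR and DNA-PK, and the chromatin around it is marked with ubiquitin by RNF8 and RNF168. The mark recruits 53BP1, which favours end joining, and BRCA1 complexes, which act in recombination; deubiquitinases such as BRCC3 and POH1 remove ubiquitin chains there. In homologous recombination the broken ends are trimmed to single strands, on which BRCA2, RAD51B, RAD51C, RAD51D, XRCC2 and XRCC3 assist strand exchange, and RecQ helicases then process the joined molecules. Many of these genes are transcribed most strongly when cells replicate their DNA.

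PSMD14, the gene for POH1, had a level of 50.9 TPM with the control siRNA and 35.1 TPM with the POH1 siRNA. The targeted transcript was still present and 1.45-fold lower by TPM ratio, short of the 1.5-fold threshold used below. Its difference on the log2(TPM + 1) scale was -0.52, and 10.7% of the genes tested lay as low or lower. With the GC trend subtracted, the PSMD14 difference was -0.24. Whether the siRNA caused this difference was not tested. Levels below are given with the control first. The epithelial markers KRT8, KRT18, KRT19, EPCAM and CDH1 lay between 111 and 1734 TPM over both libraries, and VIM, which PC3 cells also express, was at 482 and 421 TPM. KLK3 and KLK2, androgen-driven genes of the luminal prostate, were listed at 0 in both. Of markers of other cell types, PTPRC, COL3A1 and CHGA were below 1 TPM, while COL1A1 was at 30.9 and 47.8 TPM and PECAM1 at 4.90 and 3.88 TPM.

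Of the 51 repair genes that passed this level, 12 (23.5%) were lower by 1.5-fold or more in the library from POH1 siRNA and none was higher by as much, on the log2(TPM + 1) scale used for all counts. Among all 15008 genes tested, 8.88% were that much lower and 10.2% that much higher. The 12 were BLM, ATM, PRKDC, RAD51C, XRCC5, RECQL, BABAM2, MSH6, FANCL, MSH3, RAD51B and FANCI. Below, within or past 1.5-fold refers to this scale unless another setting is named, whereas folds printed for single genes are ratios of TPM itself. The added 1 makes the difference of a gene with a low level smaller than its TPM ratio. A log2 difference of -1 or below was found for 5 of the 51 (9.80%, against 2.93% of all genes): BLM, ATM, PRKDC, RAD51C and XRCC5. RECQL, MSH3 and FANCL were 2.32-, 2.16- and 2.08-fold lower by TPM ratio but did not reach -1. The 12 came from 8 of the 12 pathway groups, and in none of these groups were all members lower by this size. The median log2 difference of the repair genes (POH1 siRNA minus control) was -0.12, against 0.12 for all genes. Values below 0 made up 33 of the 51 (64.7%), and 38.8% of all genes. The low-GC transcripts of this pair of libraries were lower in general, and the repair genes have a median GC content of 44.5% against 51.0% for all genes. After the trend with GC content was subtracted, 8 of the 51 repair genes (15.7%) were at least 1.5-fold lower, against 5.18% of all genes, and 4 (7.84%) were at least 1.5-fold higher, against 12.6%. The median of the repair genes was then 0.10 and that of all genes 0.15, so the sign of the members' median depended on this step.

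**Figure D1:**
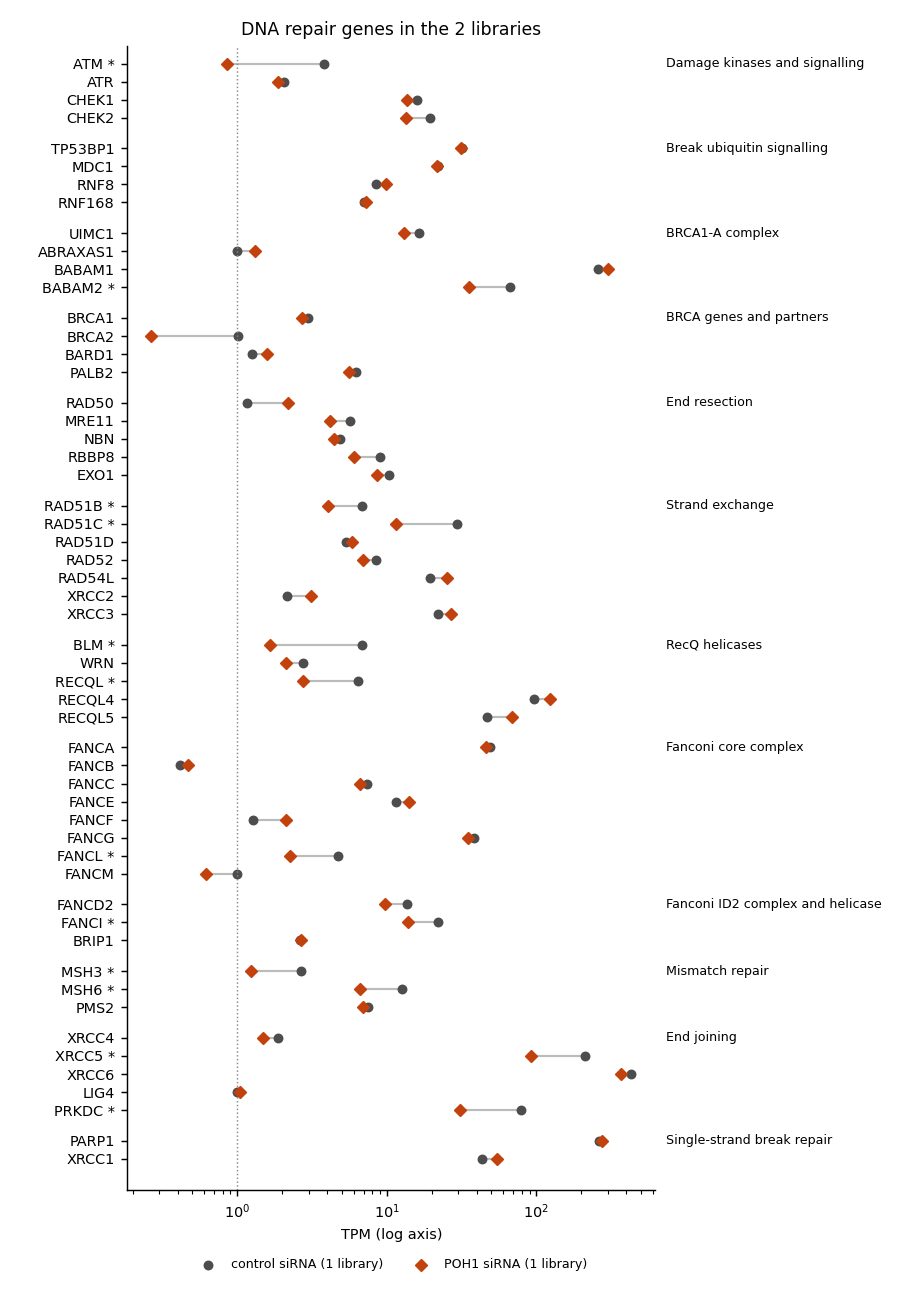
Level of each of the 54 repair genes in TPM (log axis) in the control siRNA library (grey circles) and the POH1 siRNA library (orange diamonds), grouped by pathway; an asterisk marks the 12 genes at least 1.5-fold lower and the dotted line is 1 TPM. The widest gaps are those of ATM (3.81 and 0.856 TPM), BLM (6.81 and 1.65 TPM) and BRCA2 (1.015 and 0.267 TPM), the last of which did not reach a mean of 1 TPM.

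End joining held the most abundant of the genes that were lower. PRKDC, which encodes the catalytic subunit of DNA-PK, was at 79.4 TPM in control cells and 30.7 TPM after POH1 siRNA, 2.59-fold lower. XRCC5, which encodes Ku80, was at 212 and 92.0 TPM, 2.30-fold lower. XRCC6, which encodes Ku70, the partner of Ku80 in the ring that slides onto broken ends, was at 430 and 369 TPM. The ratio of XRCC5 to XRCC6 in TPM was 0.492 in the control library and 0.249 in the POH1 siRNA library, so the transcripts of the Ku heterodimer did not differ in proportion. The ligase gene LIG4 (1.001 and 1.04 TPM) and its scaffold XRCC4 (1.87 and 1.49 TPM) were low in both libraries and within 1.5-fold. Thus 2 of the 5 end joining genes were lower, both of them subunits of DNA-PK, with differences of -1.34 for PRKDC and -1.19 for XRCC5 on the log2 scale and of -1.10 and -0.84 after GC adjustment.

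The RecQ helicases, which unwind recombination and replication intermediates, divided by gene. BLM, mutated in Bloom syndrome, was at 6.81 and 1.65 TPM, 4.11-fold lower and the member with the lowest log2 difference (-1.56). Only 0.700% of all genes tested had a difference as low or lower. RECQL was at 6.38 and 2.75 TPM, 2.32-fold lower. WRN, mutated in Werner syndrome, was at 2.75 and 2.11 TPM and lay within 1.5-fold. RECQL4 and RECQL5 had higher values in the POH1 siRNA library, at 96.1 and 123 TPM and at 47.0 and 68.5 TPM, also within 1.5-fold. RECQL4 and RECQL5 have GC-rich transcripts (65.3% and 59.5%), while BLM, RECQL and WRN have a GC content of 40.04%, 43.1% and 38.7%. BLM (-1.14) and RECQL (-0.61) were still past 1.5-fold after GC adjustment. Of the partners of BLM in the dissolution of crossed strands, from the wider lists, TOP3A and RMI2 did not pass 1.5-fold on the log2(TPM + 1) scale. TOP3A was at 12.95 and 14.9 TPM. RMI2 was at 14.98 and 9.93 TPM, 1.51-fold lower by TPM ratio. These genes were chosen after their values were seen.

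In the strand exchange group, RAD51C was at 29.3 and 11.4 TPM, 2.56-fold lower, and RAD51B at 6.87 and 4.04 TPM, 1.70-fold lower. RAD51C belongs to a complex with RAD51B, RAD51D and XRCC2 and to another with XRCC3. RAD51D, XRCC2 and XRCC3 did not share its direction. RAD51D was at 5.33 and 5.89 TPM, XRCC2 at 2.15 and 3.09 TPM and XRCC3 at 22.1 and 27.03 TPM, all within 1.5-fold. In the control library RAD51C stood above XRCC3, with a ratio of 1.33, and in the POH1 siRNA library below it, with a ratio of 0.423. RAD52, an annealing factor, was at 8.43 and 6.98 TPM, and RAD54L, a motor protein that acts during strand invasion, at 19.3 and 25.1 TPM. The group median was 0.12, the same as for all genes to 2 decimals. It was -0.24 without genes with exon overlap, against 0.12 for all genes, and -0.058 with a filter at 5 TPM, against 0.14. RAD51B was no longer past 1.5-fold after GC adjustment (-0.36), whereas RAD51C was (-0.91).

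Among the damage kinases, ATM was at 3.81 and 0.856 TPM, 4.45-fold lower. The 3 other genes of the group were within 1.5-fold: ATR, the kinase of stalled replication forks, was at 2.06 and 1.87 TPM, CHEK1, its effector kinase, at 15.9 and 13.6 TPM, and CHEK2, the effector kinase of ATM, at 19.6 and 13.3 TPM. All 4 were below the control value. CHEK2 (-0.52) and the resection gene RBBP8 (-0.52) were the nearest to the threshold of the genes not counted as lower, and both passed it when the libraries were scaled to a common median, which shifts the median of all genes by -0.13. FANCI (-0.63) was the nearest of those counted.

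In mismatch repair, MSH6 was at 12.6 and 6.61 TPM (1.90-fold lower) and MSH3 at 2.66 and 1.23 TPM (2.16-fold lower). Their proteins recognise small and larger mismatches. PMS2, which acts after recognition, was at 7.46 and 6.93 TPM. PMS2 has 15 named copies or pseudogenes among the identifiers, with 67.02 and 66.2 TPM in sum, so its own value is uncertain. MSH3 overlaps an opposite-strand gene in its exons, which leaves its level uncertain where strand was not used, and it was not past 1.5-fold once that gene was added.

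Of the Fanconi genes, which repair crosslinks between DNA strands, 2 were lower. They were 1 of the 6 core complex genes tested and 1 of the 3 genes FANCD2, FANCI and BRIP1. Among all genes tested, 8.88% were lower. FANCL, the ubiquitin ligase of the core complex, was at 4.69 and 2.25 TPM, 2.08-fold lower. FANCI was at 22.0 and 13.9 TPM, 1.58-fold lower, and its partner FANCD2, with which it is ubiquitinated by FANCL, at 13.7 and 9.76 TPM, within 1.5-fold. UBE2T, which encodes the ubiquitin-conjugating enzyme that works with FANCL, was also lower, at 81.7 and 51.7 TPM. The genes of the rest of the core complex were within 1.5-fold on the log2(TPM + 1) scale where they could be tested. FANCF, at a low level, was 1.66-fold higher by TPM ratio. FANCA was at 48.8 and 46.2 TPM, FANCG at 38.1 and 34.7 TPM, FANCC at 7.35 and 6.66 TPM, FANCE at 11.6 and 13.98 TPM and FANCF at 1.28 and 2.12 TPM. FANCB (0.414 and 0.472 TPM) and FANCM (1.001 and 0.620 TPM) did not reach a mean of 1 TPM. BRIP1, a helicase that binds BRCA1, was at 2.63 and 2.66 TPM. After GC adjustment none of FANCL (-0.46), FANCI (-0.28) and UBE2T (-0.33) was past 1.5-fold.

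BRCA1 and its direct partners were close in the libraries. BRCA1 was at 2.998 and 2.73 TPM, BARD1, with which it forms a ubiquitin ligase, at 1.26 and 1.59 TPM, and PALB2, which links BRCA1 to BRCA2, at 6.26 and 5.63 TPM. BRCA2, which acts in strand exchange, was at 1.015 and 0.267 TPM and so did not reach a mean of 1 TPM. With no filter on low values it would be a further gene past 1.5-fold (-0.67), at a level where the read depth is not known.

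The BRCA1-A complex holds a deubiquitinase, BRCC3, of the same metalloprotease family as POH1. BABAM2, a core subunit, was at 66.5 and 35.6 TPM, 1.87-fold lower, and was the only one of the 4 listed genes past 1.5-fold. BABAM1, another core subunit, was at 259 and 301 TPM. UIMC1, which binds the ubiquitin chains, was at 16.3 and 13.04 TPM, and ABRAXAS1, the scaffold, at 0.991 and 1.32 TPM; ABRAXAS1 shares exon sequence with MRPS18C on the opposite strand, and the sum of both differed by -0.67. BRCC3 itself was at 6.19 and 8.12 TPM. The ratio of BABAM2 to BABAM1 was 0.257 in the control library and 0.118 in the POH1 siRNA library. BABAM2 shares exon sequence on its own strand with MRPL33, a mitochondrial ribosomal protein gene that was at 179.6 and 105.7 TPM. The sum of both differed by -0.80. MRPL33 alone differed by -0.76, so adding it could not bring BABAM2 within 1.5-fold.

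Genes of break ubiquitin signalling, the step nearest to the known role of POH1 at breaks, were all within 1.5-fold. TP53BP1, which encodes 53BP1, was at 31.6 and 31.2 TPM, MDC1, the adaptor that recruits RNF8, at 22.1 and 21.7 TPM, RNF8 at 8.42 and 9.94 TPM and RNF168 at 7.002 and 7.25 TPM. The log2 differences of these 4 ran from -0.03 to 0.22. All 5 genes of end resection were within 1.5-fold on the log2(TPM + 1) scale as well. By TPM ratio, RAD50 was 1.89-fold higher and RBBP8 1.51-fold lower. In the MRE11 complex, MRE11 was at 5.68 and 4.16 TPM, NBN at 4.88 and 4.44 TPM and RAD50 at 1.17 and 2.20 TPM. RAD50 shares 7784 bases of exon on its own strand with a gene model without a symbol, ENSG00000283782, which was at 1.19 TPM with the control siRNA and listed at 0 with the POH1 siRNA. The sum of both had a log2 difference of -0.07, so the direction of RAD50 depends on how reads were divided between these models. RBBP8, which encodes the resection factor CtIP, was at 9.05 and 6.01 TPM, and the nuclease gene EXO1 at 10.3 and 8.59 TPM. RAD50 (0.56) had the highest log2 difference of all 51 members. Taken alone RAD50 was past 1.5-fold with a pseudocount of 0.1 TPM (0.86), without the most abundant genes (0.59) and after GC adjustment (0.98). The sum of -0.07 was computed with the main settings only and was not tried under these alternatives. In single-strand break repair, PARP1 was at 260.2 and 273 TPM and its scaffold XRCC1 at 43.3 and 54.3 TPM.

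Over all genes tested, the log2 difference went with the GC content of the transcripts (Spearman correlation 0.42 across 14983 genes, which are not independent replicates). Over the 51 repair genes the correlation was 0.33, as a description of genes that share these libraries. Of the 3881 genes with up to 45% GC, 20.1% were at least 1.5-fold lower, and of the 11102 genes above 45% GC, 4.95% were. In the same classes, 9 of 27 repair genes (33.3%) and 3 of 24 (12.5%) were lower. The 3 above 45% were PRKDC, BABAM2 and MSH6. Within the class above 40% and up to 45% GC the count was 8 of 17 repair genes, against 19.8% of all genes, whereas up to 40% it was 1 of 10, against 20.9%.

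**Figure D2:**
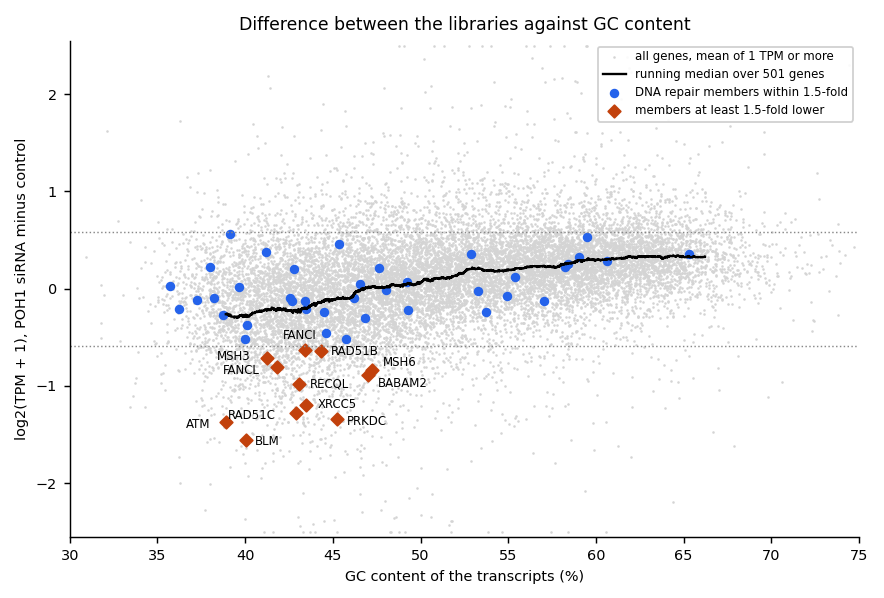
Log2 difference between the libraries (POH1 siRNA minus control, vertical axis) against the GC content of the transcripts in percent (horizontal axis), for all genes tested (grey points; 29 genes past a size of 2.5 are drawn at the edge and 12 genes lie outside the GC range shown), their running median (line) and the repair genes (blue circles, orange diamonds where at least 1.5-fold lower). The dotted lines are 1.5-fold; all 12 lower members lie below 50% GC and below the running median.

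Exons of 18 of the 51 repair genes overlap those of another gene tested, on either strand, and where strand was not used reads of such genes cannot be told apart. Without these 18 genes, 5 of 33 repair genes (15.2%) were at least 1.5-fold lower, against 8.57% of all genes without overlap; the 5 were BLM, PRKDC, RAD51B, RAD51C and XRCC5. FANCI with POLG (-0.15 for the sum) and FANCL with VRK2 (-0.47) were no longer past 1.5-fold when the overlapping opposite-strand gene was added, and MSH3 was lost in the same way, with a sum that is not reported here. MSH6 with FBXO11 (-0.70), RECQL with PYROXD1 (-0.81) and ATM with NPAT (-1.68) were. NPAT alone differed by -1.37, so adding it could not bring ATM within 1.5-fold.

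Several repair genes start beside another gene that is transcribed the opposite way. ATM and NPAT, a gene that coactivates histone transcription, start head to head and share 143 bases of exon. NPAT was at 3.41 and 0.702 TPM and ATM at 3.81 and 0.856 TPM, so both were lower, each with a log2 difference of -1.37. PRKDC and the replication helicase gene MCM4 start 2 bases apart. MCM4 was at 66.3 and 86.9 TPM, in the opposite direction to PRKDC. RECQL and GOLT1B, a Golgi transport gene, start 112 bases apart, and GOLT1B was at 2.17 and 4.14 TPM, again opposite to its neighbour. PALB2 and the dynactin gene DCTN5, chosen after its values were seen, start 82 bases apart; DCTN5 was at 30.02 and 7.40 TPM while PALB2 was within 1.5-fold. The genes that start beside RAD51C, TEX14 and IGBP1C, were below 1 TPM in both libraries. Over the 11 divergent pairs of a repair gene and a protein-coding neighbour, both tested, the Spearman correlation of the log2 differences was -0.21, and over 529 such pairs in all it was 0.24, both as descriptions.

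**Figure D3:**
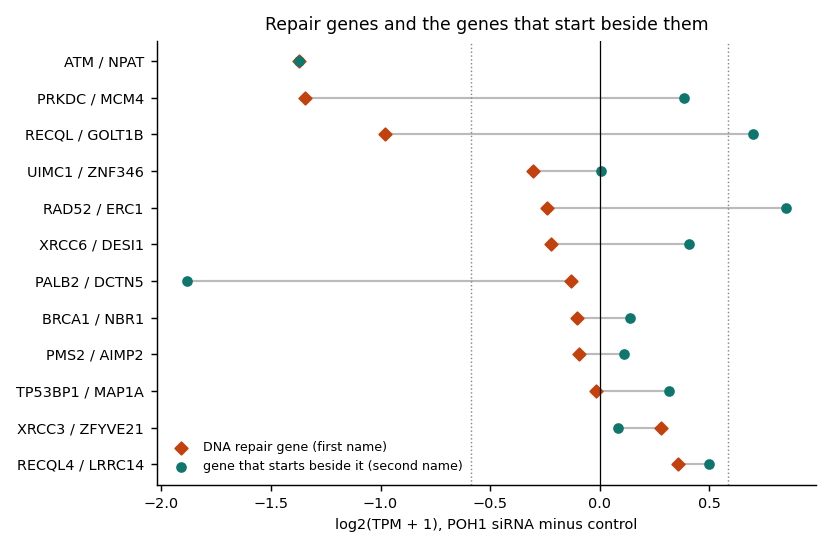
Log2 difference between the libraries (POH1 siRNA minus control, horizontal axis) of repair genes (orange diamonds) and of the protein-coding genes that start beside them on the other strand (green circles), 1 pair per row, with the overlapping pair of ATM and NPAT added. The dotted lines are 1.5-fold; ATM and NPAT coincide at -1.37, whereas PRKDC and MCM4, and RECQL and GOLT1B, lie on opposite sides of 0.

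The promoter windows of 3 of the lower genes are given to show the letters around these starts: ATM and RECQL, each with a neighbour that starts beside it, and BLM, which had the lowest difference. The windows run 5′ to 3′ on the strand of the gene, from 250 bases before the start to 50 after it, as RefSeq gives them on GRCh38.p14. Capitals mark 3 words searched on both strands: the CCAAT box (CCAAT), the cell cycle homology element (TTTGAA) and E2F words (TTTGGCGC or TTTCGCGC).
ATM, chr11:108222817-108223116, plus strand: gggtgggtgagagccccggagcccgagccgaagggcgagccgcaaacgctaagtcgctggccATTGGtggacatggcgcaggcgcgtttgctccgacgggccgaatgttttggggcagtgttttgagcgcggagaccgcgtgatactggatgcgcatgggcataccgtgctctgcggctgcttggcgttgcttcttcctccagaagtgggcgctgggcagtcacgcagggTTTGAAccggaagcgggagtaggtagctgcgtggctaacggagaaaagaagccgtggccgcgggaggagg
RECQL, chr12:21501586-21501885, minus strand: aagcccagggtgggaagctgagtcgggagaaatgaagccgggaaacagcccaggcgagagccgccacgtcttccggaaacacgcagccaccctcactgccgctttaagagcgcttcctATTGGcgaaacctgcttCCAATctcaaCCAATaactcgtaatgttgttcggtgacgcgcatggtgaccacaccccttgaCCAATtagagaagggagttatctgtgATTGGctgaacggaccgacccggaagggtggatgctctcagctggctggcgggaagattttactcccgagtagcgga
BLM, chr15:90717096-90717395, plus strand: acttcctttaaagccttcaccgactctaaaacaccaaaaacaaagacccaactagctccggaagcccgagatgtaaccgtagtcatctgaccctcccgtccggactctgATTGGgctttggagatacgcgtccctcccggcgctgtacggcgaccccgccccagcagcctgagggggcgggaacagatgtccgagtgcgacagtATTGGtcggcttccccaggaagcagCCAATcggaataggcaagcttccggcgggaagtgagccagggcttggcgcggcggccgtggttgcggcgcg
The window of RECQL holds 5 CCAAT words and that of BLM 3, counting both strands. That of ATM holds 1 CCAAT word and 1 TTTGAA, 20 bases before the start. None of these windows holds an E2F word. A window was found for 48 of the 54 repair genes, the first one listed where a gene has several. Of these, 23 (47.9%) held a CCAAT word, against 35.7% of the windows of all 27305 genes with a window. TTTGAA was held by 5 (10.4%), against 15.4%, and an E2F word by 4 (8.33%), against 1.18%. The repair gene windows had a median GC content of 64.5%, against 58.3% for all windows, and the shares were not adjusted for it. Of the 9 lower genes with a window, 4 held CCAAT, 1 held TTTGAA and 1 held an E2F word, so each word also occurred in repair genes that were not lower. A match of letters is a description and does not show that a factor binds there.

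Other repair pathways are given for comparison, with no test of a difference. Over 129 genes in 10 further repair lists, 120 were tested, of which 10 (8.33%) were at least 1.5-fold lower and 5 (4.17%) higher, against 8.88% and 10.2% of all genes, with a median of 0.01. In nucleotide excision repair, which removes bulky lesions, 5 of 22 genes (22.7%) were lower and none higher (median 0.13), shares close to those of the 51 repair genes. CETN2, a centrin that also serves the damage sensor XPC, was at 102 and 37.8 TPM, and GTF2H5, a small subunit of the transcription factor TFIIH, at 2.56 and 0.697 TPM. In base excision repair, which replaces single damaged bases, 3 of 22 were higher and 1 lower (median 0.21). UNG, the uracil glycosylase, was at 20.3 and 47.3 TPM, and MBD4, another glycosylase, at 15.2 and 6.25 TPM.

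Among the other end joining genes, 1 of 7 was lower: POLQ, the polymerase of microhomology-mediated joining, was at 4.26 and 0.594 TPM, 7.18-fold lower, while the polymerase gene POLL was at 15.01 and 21.8 TPM. POLQ had a lower log2 difference (-1.72) than any of the 54 members. Of the checkpoint and single-strand binding genes, 1 of 14 was higher and none lower. RAD17, a clamp loader, was the higher gene (6.75 and 13.3 TPM). TIPIN, at 3.52 and 2.03 TPM, was 1.74-fold lower by TPM ratio but within 1.5-fold on the log2(TPM + 1) scale. Of other recombination genes, MCM9 was at 2.94 and 5.68 TPM and was the 1 of 18 that was higher; RMI2 had the largest difference among the rest. None of the 8 translesion genes tested passed 1.5-fold, and REV1 (13.2 and 16.7 TPM) and POLH (8.48 and 10.6 TPM) were farthest apart. SHLD2, a shieldin subunit that acts below 53BP1, was at 3.48 and 1.57 TPM and was the 1 of 3 effectors that was lower; SHLD1 was at 7.36 and 6.09 TPM.

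Of 9 Fanconi associates, UBE2T was the 1 that was lower. CENPS, at 20.1 and 13.3 TPM, was 1.51-fold lower by TPM ratio but within 1.5-fold on the log2(TPM + 1) scale. In the SMC5/6 complex 1 of 6 was lower, NSMCE2 (58.3 and 30.3 TPM), a SUMO ligase, and NSMCE3 was at 6.24 and 8.72 TPM. None of the 11 genes of ubiquitin handling in break chromatin, PSMD14 and BRCC3 among them, passed 1.5-fold (median 0.27). NPLOC4, a cofactor of the segregase VCP, was at 97.6 and 143.9 TPM.

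**Figure D4:**
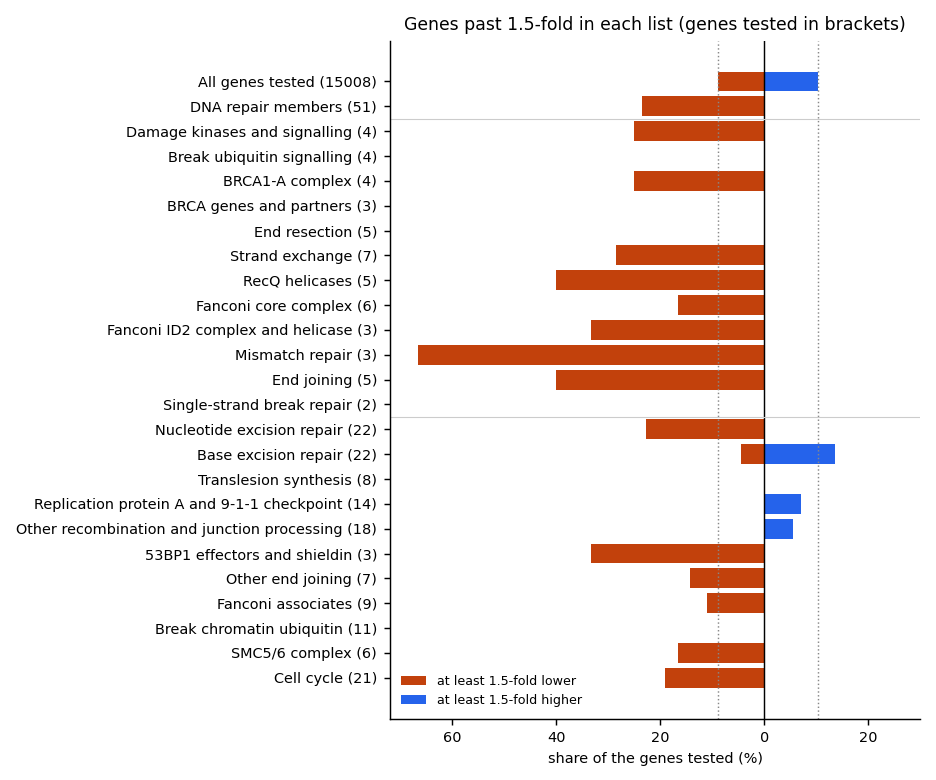
Share of the genes tested (horizontal axis, percent, zero in the middle) that differed by 1.5-fold or more, lower (orange, to the left) or higher (blue, to the right) with POH1 siRNA, for all genes, the repair genes, their pathway groups, the wider repair lists and the cell cycle list; the number of genes tested is in brackets and the dotted lines are the shares of all genes. In groups of 2 to 7 genes 1 gene moves the bar widely; mismatch repair rests on 2 of 3 genes.

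Repair genes are read beside the cell cycle, since many peak when DNA is replicated. Of 21 cell cycle genes, 4 (19.0%) were at least 1.5-fold lower and none was higher, with a median of -0.03. Among all genes tested, 8.88% were lower and 10.2% higher, with a median of 0.12. The 4 were CCNB2, the mitotic cyclin (45.8 and 20.9 TPM), RRM1, the large subunit of ribonucleotide reductase (52.6 and 25.9 TPM), TOP2A, a topoisomerase (18.9 and 9.31 TPM), and CCNA2, the cyclin of replication and early mitosis (12.9 and 7.69 TPM). MKI67, a proliferation marker, was at 7.08 and 9.20 TPM and PCNA, the replication clamp, at 129 and 115.8 TPM, both chosen after their values were seen. Log2 differences were below 0 for 11 of the 21, and the part of the cell cycle in the values of the repair genes was not tested.

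Levels differed far more between repair genes than between the libraries. In the control library the order began with XRCC6, followed by PARP1, BABAM1 and XRCC5, and in the POH1 siRNA library XRCC5 stood behind RECQL4, at 92.0 against 123 TPM. With no replicates, neighbours in either order cannot be said to differ.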

How the data were processed

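Messenger RNA of PC3 cells was sequenced, with 1 library per siRNA. Libraries were made from total RNA with a messenger RNA kit, per the labels' protocols. CASAVA, HISAT2 and the hg19 build are named in the submitters' processing notes; versions, the gene annotation, the quantification tool and the use of strand were not stated there. The authors deposited TPM values for Ensembl gene identifiers. They keep no read depth, so no counting interval or detection limit can be given.

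Symbols were assigned by identifier from a name table (57392 of 58174 identifiers). From these TPM values, log2(TPM + 1) differences were computed in Python 3.11.15 (pandas 2.3.3) over the 15008 genes whose mean reached 1 TPM. No test was possible with 1 library per group. GC content (the median over a gene's transcripts), exon overlap and neighbouring starts came from GENCODE release 29, which annotates another build (GRCh38), so only relations between genes were taken from it. Promoter windows came from RefSeq (GRCh38.p14). The code was tested on simulated data.

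The members, the gene lists and the thresholds were chosen with earlier results of these data known. Every member could be named. Of each wider repair list, the 2 members with the largest difference were named, with PSMD14 and BRCC3 always, and of the cell cycle list the 4 largest. Other pseudocounts, filters and scalings, a GC adjustment (running median over 501 genes), sums over genes that share exons and, added after the values were seen, the removal of genes with exon overlap and sums with opposite-strand genes were tried. Some genes and the results that need them are not reported here.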

Additional observations from a re-analysis of the deposited data

How the results depend on the processing

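The limits of these results are the single library per group, the unknown read depth of TPM values and the unknown use of strand. Of the 12 repair genes at least 1.5-fold lower, 7 (ATM, BABAM2, BLM, MSH6, PRKDC, RAD51C and XRCC5) stayed past 1.5-fold under each of the 9 listed alternatives that kept them, while RAD51B, RECQL, FANCL, FANCI and MSH3 were lost in at least 1. Most of these alternatives could not remove a lower gene. A filter leaves the value of a gene unchanged, and the scalings and the smaller pseudocount made these differences larger in size. The same-strand sum changed only BABAM2 among the 12. All losses came from the pseudocount of 5 TPM or the GC adjustment. The filter at 5 TPM left ATM and BLM out. Summed with overlapping opposite-strand genes, a setting chosen after seeing the data like the removal of genes with exon overlap, FANCL (-0.47), FANCI (-0.15) and MSH3 (value not reported here) were no longer past 1.5-fold, and ABRAXAS1 reversed from 0.22 to -0.67. Summed with the gene model that shares its own strand, RAD50 went from 0.56 to -0.07.

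The number of repair genes lower was 7 of 51 with a pseudocount of 5 TPM (13.7%, against 4.45% of all genes). It was 7 of 33 with a filter at 5 TPM (21.2%, against 8.45%). Without genes with exon overlap it was 5 of 33 (15.2%, against 8.57%). The causes were not tested beyond the fewer genes these last filters leave. The number higher went from 0 to 2 with a pseudocount of 0.1 TPM (FANCF and RAD50), to 1 without mitochondrial and the 50 most abundant genes (RAD50) and to 4 after GC adjustment (ABRAXAS1, FANCF, RAD50 and XRCC2). Over all genes, 1333 were lower and 1535 higher as reported. These counts were 668 and 636 with a pseudocount of 5 TPM, 855 and 952 with a filter at 5 TPM, 864 and 947 without genes with exon overlap, 776 lower after GC adjustment, and 974 or 1021 higher with median or trimmed mean scaling. Of all calls, 53.5% were higher as reported, 34.3% and 36.0% under these scalings, 44.6% without the most abundant genes and 70.9% after GC adjustment. Scaling to a common median moved the median of all genes by -0.13.

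Group medians moved by more than 1.2-fold as follows. After GC adjustment they were -0.069 for damage kinases, 0.27 for BRCA genes, 0.043 for end resection, 0.14 for RecQ helicases and -0.35 for mismatch repair. Without genes with exon overlap they were -0.10 for damage kinases, -0.24 for strand exchange, -0.91 for RecQ helicases and -0.092 for mismatch repair. With a filter at 5 TPM they were 0.45 for RecQ helicases and -1.19 for end joining, and with a pseudocount of 5 TPM -0.30 for mismatch repair. The other 143 of 170 summary values stayed within 1.2-fold for medians and within 1.5 times for counts. The wider limit for counts takes in 8 in place of 12 repair genes lower after GC adjustment. It also takes in 1864 in place of 1333 of all genes lower with median scaling. Of 130 medians under alternatives, 13 changed sign, in 7 of 13 gene sets: all members (0.10), BRCA genes, end resection, RecQ helicases and the Fanconi core (0.0043) after GC adjustment; RecQ helicases and strand exchange (-0.058) at 5 TPM; strand exchange, BRCA genes (0.033) and the Fanconi core (0.063) without exon overlap; and break ubiquitin signalling (-0.11, -0.10 and -0.053) under both scalings and without the most abundant genes. No paired analysis was possible because each group has 1 library.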

Other observations

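The 5 lower genes of nucleotide excision repair were CETN2, GTF2H5, CDK7, GTF2H1 and ERCC8, 3 of which encode parts of TFIIH, the factor that opens DNA both in repair and at the start of transcription. CDK7, its kinase, had 26.7 TPM with the control siRNA and 12.7 TPM with the POH1 siRNA. GTF2H1 was at 22.3 and 13.3 TPM and GTF2H5 at 2.56 and 0.697 TPM. The partners of CDK7 in the kinase module went the other way, with CCNH at 33.8 and 39.2 TPM and MNAT1 at 41.2 and 46.3 TPM, both within 1.5-fold. The helicase genes ERCC2 (67.7 and 81.1 TPM) and ERCC3 (55.5 and 59.8 TPM) were also within 1.5-fold. ERCC8, which marks stalled polymerases, was at 2.06 and 0.619 TPM. After GC adjustment CDK7 (-0.64), GTF2H5 (-0.68) and CETN2 (-1.06) were past 1.5-fold, and GTF2H1 (-0.30) and ERCC8 (-0.49) were not.

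The 3 higher genes of base excision repair were UNG, SMUG1 and APEX1. UNG and SMUG1, which both remove uracil from DNA, were at 20.3 and 47.3 TPM and at 12.96 and 24.8 TPM, and APEX1, which cuts the strand at the site left behind, was at 81.4 and 132 TPM. All 3 were past 1.5-fold after GC adjustment as well (1.24, 0.84 and 0.65). These genes, other than UNG, CETN2 and GTF2H5, were chosen after their values were seen.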
